A study of Mus musculus with 13 samples.

Results

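*Gal*, *Oit3*, *Cacna2d2* and *Atp1b1* were followed here as a group of 4 genes among the 32793 genes of the count tables. They were chosen by their measured fold change and adjusted p between mutant and control embryos, which marked them as higher in mutants at both stages, so the comparison of mutant with control describes how they were picked and is given without a test. RNA was measured in 13 mouse libraries. The mutant embryos (3 E10.5 foreguts and 4 E11.5 tracheas) carried Gli3TFlag/+ together with a Cre recombinase, which switches on a tagged, truncated Gli3 that acts as a repressor of Hedgehog target genes. The control embryos (3 E10.5 foreguts and 3 E11.5 tracheas) carried the same Gli3TFlag/+ allele without Cre. E10.5 and E11.5 count embryonic days, and each library came from the dissection of a separate embryo. The labels give the strain as C57BL/6, whereas the methods of the study describe an outbred background. The Cre driver acts in both the endoderm and the mesoderm of the foregut, so the repressor was not limited to 1 germ layer.

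As background, *Gal* encodes the precursor of galanin, a secreted neuropeptide that signals through the G protein-coupled receptors Galr1, Galr2 and Galr3. *Atp1b1* encodes a beta subunit of the sodium pump, which the catalytic alpha subunit needs to leave the endoplasmic reticulum and reach the plasma membrane. *Cacna2d2* encodes an alpha2delta subunit of voltage-gated calcium channels, an extracellular accessory protein that raises the number of channels at the cell surface. *Oit3* encodes a secreted protein with a zona pellucida domain that is best known from liver, including the endothelium of its sinusoids. In the embryo, Hedgehog ligands from the foregut epithelium act on the surrounding mesenchyme. Where the ligands are absent, Gli3 is cut to its repressor form, which keeps target genes low.

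In the GRCm38 build with the GENCODE M21 annotation, *Gal* is at chr19:3409915-3414544 and *Oit3* at chr10:59422958-59441778, both on the minus strand and with no other annotated gene over them. *Cacna2d2* is at chr9:107399612-107529343 on the plus strand, and exons of the antisense gene Gm17141 lie over its exons. *Atp1b1* is at chr1:164437109-164458355 on the minus strand, where the last exons of the protein-coding gene *Nme7* on the other strand reach into it. The library kit does not mark strand, so reads from the shared bases cannot be told apart. *Nme7* itself had 9.73 to 12.5 CPM in mutant tracheas and 13.4 to 14.3 CPM in control tracheas (CPM are counts scaled to the size of the library) and was not called by the edgeR test described further on (log2 fold change -0.30, adjusted p = 0.332, higher in none of the mutant tracheas).

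RefSeq promoter entries were found for 3 of the 4 genes. The 250 bases before the annotated start are shown for *Gal*, whose RNA differed most between genotypes at E10.5, and for *Atp1b1*, whose RNA differed least. They are from GRCm38.p6, at chr19:3414545-3414794 and chr1:164458356-164458605, both read on the minus strand.
Gal: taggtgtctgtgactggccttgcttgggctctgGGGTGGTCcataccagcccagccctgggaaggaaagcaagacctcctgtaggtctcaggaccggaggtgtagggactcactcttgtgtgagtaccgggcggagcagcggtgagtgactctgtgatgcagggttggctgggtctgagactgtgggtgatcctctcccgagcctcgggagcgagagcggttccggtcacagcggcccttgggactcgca
Atp1b1: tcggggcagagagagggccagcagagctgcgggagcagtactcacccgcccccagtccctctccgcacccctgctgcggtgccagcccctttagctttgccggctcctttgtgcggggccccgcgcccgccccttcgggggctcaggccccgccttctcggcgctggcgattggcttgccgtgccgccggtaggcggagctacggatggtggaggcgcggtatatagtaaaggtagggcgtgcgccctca
Capitals mark the letters GGGTGGTC, 217 to 210 bases before the *Gal* start, which are GACCACCC, the core of the GLI motif, on the opposite strand. Both strands were searched, and 0.703% of 32851 mouse promoters of the same length hold this core. The longer form GACCACCCA is held by 0.225% of them and was not found in the *Gal*, *Atp1b1* or *Cacna2d2* windows, nor was the forkhead core TGTTTA, which 12.0% hold. The 8-letter core was added to the search after the *Gal* sequence had been read, and a match of letters describes the sequence and not a bound site.

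Deposited counts summed to 15.4 to 17.99 M in each foregut library and 9.65 to 15.9 M in each trachea library. *Gli3*, which includes reads of the transgene, had 337, 329.6 and 359 CPM in mutant foreguts against 261, 255 and 289 CPM in control foreguts. In tracheas it had 426, 369, 396 and 399 CPM in mutants against 263, 189 and 201 CPM in controls, so no library went against its label. Mutant replicate 2 of each stage stood apart by its heart muscle RNA and mutant replicate 3 of E10.5 by its neuronal RNA, and the values of the 4 genes are set beside both further on. The female marker *Xist* was between 1662 and 2307 CPM in mutant foregut replicates 1 and 2 but in no control foregut, in mutant trachea replicates 3 and 4 and in control trachea replicate 1, and at most 36.7 CPM in the other libraries. Its part in the values was not tested.

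All 4 genes passed the filter on low counts at both stages, *Gal* and *Oit3* at E10.5 through the mutant libraries, since no control foregut reached 10 counts of either. In each of the 4, every mutant library was above every control library at both stages. By the rule that chose the genes, that is no result about them. Of all genes tested, 11.7% had groups separated in this way at E10.5, 9.17% at E11.5 and 2.6% at both. An adjusted p of at most 0.05 with a log2 fold change of at least 1 was met by 0.137% of genes tested at E10.5, by 0.845% at E11.5 and by 0.0405% (6 of 14823 genes) at both.

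*Gal* was nearly silent in control foreguts. It had 8.65, 4.81 and 11.4 CPM in mutant foreguts, against 0.242, 0 and 0.375 CPM in control foreguts. These rest on 145, 73 and 195 counts in mutants and on 4, 0 and 7 counts in controls, and the groups were far apart. The pooled ratio was 40.4 (95% interval 22.3 to 81.5, exact and for counting error only, 413 against 11 counts). This interval allows neither for the spread between embryos nor for the choice of the gene by the same contrast, and it is no test. The fitted log2 fold change of 5.27 (standard error 0.661) depends on the prior count because the controls are so low, and it was 4.70 without control replicate 2, the library with no *Gal* count, and 6.05 without control replicate 3.

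In tracheas *Gal* was detected in every library. It had 55.0, 27.9, 58.5 and 51.0 CPM in mutant tracheas, against 4.02, 9.56 and 5.46 CPM in control tracheas. The lowest mutant was 2.92 times the highest control, with a fitted log2 fold change of 2.91 (standard error 0.320). Replicate 2 was the lowest mutant at both stages. The mutants differed among themselves by up to 2.37-fold at E10.5 and 2.09-fold at E11.5.

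*Oit3* had the lowest mean TPM of the 4 in every group, while in CPM *Gal* was lower in control foreguts. *Oit3* had 4.36, 1.85 and 2.22 CPM in mutant foreguts (73, 28 and 38 counts), against 0.242, 0.398 and 0.429 CPM in control foreguts (4, 7 and 8 counts). Its trachea levels were 4.07, 7.05, 7.66 and 10.49 CPM in mutants (54, 99, 124 and 94 counts), against 0.315, 1.04 and 0.210 CPM in controls (4, 15 and 3 counts). The control tracheas were as low as the control foreguts except for replicate 2. The log2 fold change was 2.95 (standard error 0.467) at E10.5 and 3.76 (standard error 0.512) at E11.5, and the E11.5 value was 4.76 without control replicate 2. Pooled counts gave ratios of 7.87 (95% exact interval 4.85 to 13.5) and 13.3 (8.67 to 21.5). These intervals are again for counting error only and make no allowance for the choice of the gene.

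*Cacna2d2* had 18.3, 8.11 and 12.7 CPM in mutant foreguts, against 2.66, 2.50 and 4.29 CPM in control foreguts. Its trachea values were 45.5, 99.9, 42.7 and 48.8 CPM in mutants, against 19.8, 12.6 and 12.4 CPM in controls. Mutant trachea replicate 2 stood far above the other mutants, whereas replicate 2 of the mutant foreguts, a different embryo, was the lowest of its group. The log2 fold change was 2.04 (standard error 0.340) at E10.5 and 1.99 (standard error 0.308) at E11.5. Without mutant trachea replicate 2 the E11.5 value was 1.61.

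*Atp1b1* was the best covered of the 4, with at least 224 counts in every library. It had 42.8, 49.8 and 33.3 CPM in mutant foreguts, against 14.1, 16.0 and 15.7 CPM in control foreguts. The control foreguts lay close together, and the mutants differed among themselves by no more than 1.496-fold. Trachea levels were 86.6, 114, 70.5 and 48.4 CPM in mutants, against 29.8, 15.5 and 21.9 CPM in controls. Both groups spread more widely at E11.5 and still did not overlap. The log2 fold change was 1.46 (standard error 0.150) at E10.5 and 1.84 (standard error 0.282) at E11.5.

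**Figure D1:**
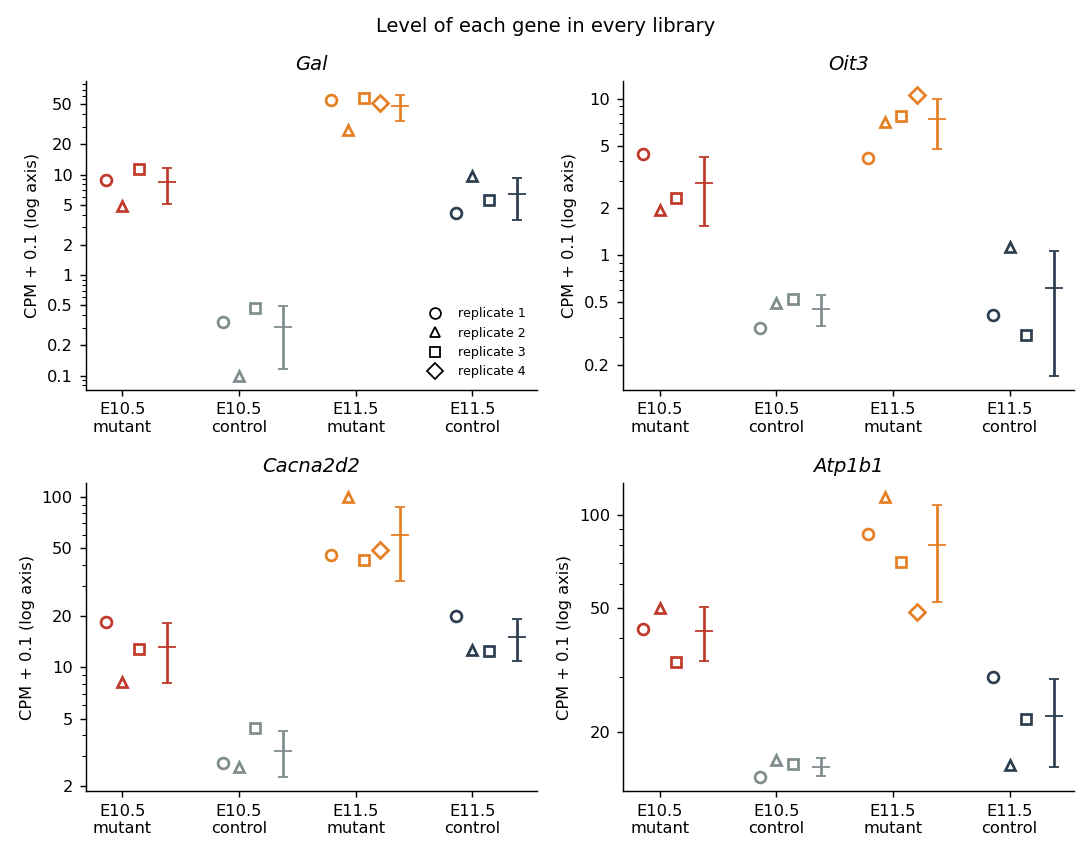
CPM + 0.1 on a log axis for *Gal*, *Oit3*, *Cacna2d2* and *Atp1b1* in each of the 13 libraries, with 1 open symbol per library (its shape gives the replicate number) and the mean with its SD to the right of each group. Every mutant library lies above every control library of its stage, with the widest gap for *Gal* at E10.5 (8.65, 4.81 and 11.4 CPM in mutants against 0.242, 0 and 0.375 CPM in controls).

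The choice of these genes had an edge. Besides them, *Ccbe1* and *Asb4* were called higher at both stages. *Cacna2d2* was just inside, with a larger adjusted p of 0.049999 from edgeR's quasi-likelihood test, and *Oit3* was next with 0.0455. Just outside were *Dpf3* (log2 fold changes of 2.20 at E10.5 and 1.78 at E11.5, larger adjusted p = 0.0514 in edgeR) and *Alx4* (1.78 and 2.40, larger adjusted p = 0.0547 in edgeR).

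On the TPM scale, which divides by transcript length and so allows genes to be set side by side, the order of the 4 genes differed between groups. In mutant foreguts the mean level was 25.3 TPM ± 4.52 for *Atp1b1* and 20.3 TPM ± 8.52 for *Gal* (SD, n = 3), whose ranges overlapped, then 3.66 TPM ± 1.37 for *Cacna2d2* and 1.61 TPM ± 0.739 for *Oit3*. In control foreguts *Atp1b1* led at 9.37 TPM ± 1.08 (SD, n = 3), and *Cacna2d2* (0.92 TPM ± 0.366), *Gal* (0.527 TPM ± 0.506) and *Oit3* (0.210 TPM ± 0.0656) followed. There *Gal* overlapped in range with both *Cacna2d2* and *Oit3*.

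In mutant tracheas *Gal* led at 120.1 TPM ± 33.8 (SD, n = 4), ahead of *Atp1b1* at 50.7 TPM ± 20.0, and only the lowest *Gal* library (74.4 TPM) fell under the highest *Atp1b1* library (75.7 TPM). *Cacna2d2* had 17.3 TPM ± 8.83 and *Oit3* 4.31 TPM ± 1.36 in the same tracheas. In control tracheas *Gal* (16.7 TPM ± 7.34) and *Atp1b1* (14.8 TPM ± 5.29) overlapped, with *Cacna2d2* at 4.61 TPM ± 1.49 and *Oit3* at 0.327 TPM ± 0.274 (SD, n = 3). The mean *Gal* level was above that of *Cacna2d2* in every group except control foreguts.

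The comparison of stages was not itself used to choose the genes. It uses the same libraries as the choice, however, so its p-values are not independent of it. The test was made within each genotype, in 1 edgeR fit of all 13 libraries. In it, the stage and the dissected tissue (trachea at E11.5, foregut at E10.5) cannot be told apart, and counts of both stages come from separate tables scaled together. All 4 genes were called higher in E11.5 mutants than in E10.5 mutants, as were 8.12% of all genes tested. In controls *Gal* and *Cacna2d2* were called higher at E11.5, as were 11.2% of all genes.

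*Gal* changed most. In this fit it had 28.4 to 59.6 CPM in mutant tracheas and 4.72 to 11.2 CPM in mutant foreguts (log2 fold change 2.58 ± 0.376 standard error, adjusted p = 0.000608, edgeR). In controls it had 4.07 to 9.72 CPM in tracheas and 0 to 0.370 CPM in foreguts (4.93 ± 0.623, adjusted p = 0.000219, edgeR), and the fold change was 4.35 without E10.5 control replicate 2 and 5.71 without E10.5 control replicate 3. Control tracheas and mutant foreguts therefore overlapped in their *Gal* level. *Cacna2d2* had 43.5 to 101.7 CPM in mutant tracheas and 7.95 to 17.8 CPM in mutant foreguts (log2 fold change 2.24, standard error 0.342, adjusted p = 0.000890, edgeR). In controls it had 12.6 to 20.0 CPM in tracheas and 2.46 to 4.22 CPM in foreguts (2.28, standard error 0.392, adjusted p = 0.00167, edgeR). Control tracheas and mutant foreguts overlapped for this gene too.

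*Atp1b1* and *Oit3* differed less between stages. *Atp1b1* had 48.6 to 116 CPM in mutant tracheas and 32.7 to 48.9 CPM in mutant foreguts (log2 fold change 0.99, standard error 0.255, adjusted p = 0.0194, edgeR), and it was not called without E10.5 mutant replicate 1 (0.99, adjusted p = 0.0590) or replicate 3 (0.84, adjusted p = 0.0733). *Oit3* had 4.18 to 10.52 CPM in mutant tracheas and 1.81 to 4.26 CPM in mutant foreguts (log2 fold change 1.42, standard error 0.432, adjusted p = 0.0396, edgeR). That call was lost without E10.5 mutant replicate 2 (1.20, adjusted p = 0.130) or 3 (1.27, adjusted p = 0.113), and without E11.5 mutant replicate 2 (1.44, adjusted p = 0.0660), 3 (1.40, adjusted p = 0.0691) or 4 (1.20, adjusted p = 0.0990). In controls neither passed: the log2 difference of *Atp1b1* was 0.59 ± 0.281 (adjusted p = 0.146, edgeR) and that of *Oit3* 0.59 ± 0.632 (adjusted p = 0.538, edgeR). The *Oit3* value was -0.42 without E11.5 control replicate 2. Whether the stage difference was larger in mutants than in controls was not tested, because both genotype contrasts had been used to choose the genes.

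Heart muscle genes are set beside the 4 genes library by library. *Tnnt2*, the cardiac troponin T that binds tropomyosin in the sarcomere, had 30.6, 151 and 15.1 CPM in mutant foreguts, against 4.41, 3.13 and 2.73 CPM in control foreguts. In tracheas it had 81.7, 321, 98.4 and 58.5 CPM in mutants, against 40.0, 28.3 and 14.7 CPM in controls. Replicate 2 was the highest mutant at both stages, and the mutants spanned 10.0-fold at E10.5 and 5.49-fold at E11.5. Over the same libraries the spans at E10.5 were 2.37-fold for *Gal*, 2.36-fold for *Oit3*, 2.25-fold for *Cacna2d2* and 1.496-fold for *Atp1b1*, and at E11.5 none of the 4 genes exceeded 2.58-fold.

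*Myh6*, the alpha myosin heavy chain of cardiac muscle, had 19.1, 61.3 and 6.24 CPM in mutant foreguts, against 3.32, 6.09 and 0.483 CPM in control foreguts. Its trachea levels were 75.7, 634, 141.6 and 125.8 CPM in mutants, against 58.5, 16.4 and 0.280 CPM in controls. The lowest mutant and the highest control were close at both stages (ratios of 1.03 at E10.5 and 1.29 at E11.5). Its sequence is close to that of *Myh7*, so RSEM's division of reads between them is uncertain, and in TPM the foregut groups overlapped (4.77, 110.6 and 2.62 TPM in mutants against 0.83, 5.61 and 1.99 TPM in controls).

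Of 21 heart muscle genes, 17 were tested at E10.5 and 18 at E11.5. By edgeR none was called at either stage, while 15 at E10.5 and 13 at E11.5 were higher at an unadjusted p under 0.05. DESeq2 called 8 and 1 of them higher, and limma-voom none. Of all genes tested, edgeR called 0.314% higher at E10.5 and 1.81% at E11.5. No share of all genes is given for an unadjusted p, DESeq2 or limma-voom, here or for the lists below. Counts by these rules are therefore not set against a background. The list had a median log2 fold change of 3.53 in foreguts and 2.32 in tracheas, against 0.03 and -0.01 over all genes tested. The summed level of the list was 328.9, 2296 and 163.7 TPM in mutant foreguts against 83.8, 95.2 and 99.4 TPM in control foreguts. In tracheas it was 906.7, 5324, 1083 and 622.6 TPM in mutants against 691.4, 184 and 92.7 TPM in controls. The sum of control trachea replicate 1 was thus above that of mutant trachea replicate 4. *Tnnt2* (70.9 against 83.4 TPM) and *Myh6* (29.5 against 35.2 TPM) were lower in that control than in that mutant. A list of skeletal muscle genes summed to 13.4 TPM in the same control and to 1.82 TPM in the same mutant, and its part in the heart muscle sum was not tested. *Actc1* and *Ttn*, the most abundant of the other heart genes by CPM, had 287.4 to 2982 TPM and 5.96 to 20.2 TPM in mutant tracheas against 9.86 to 349 TPM and 0.150 to 8 TPM in control tracheas.

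**Figure D2:**
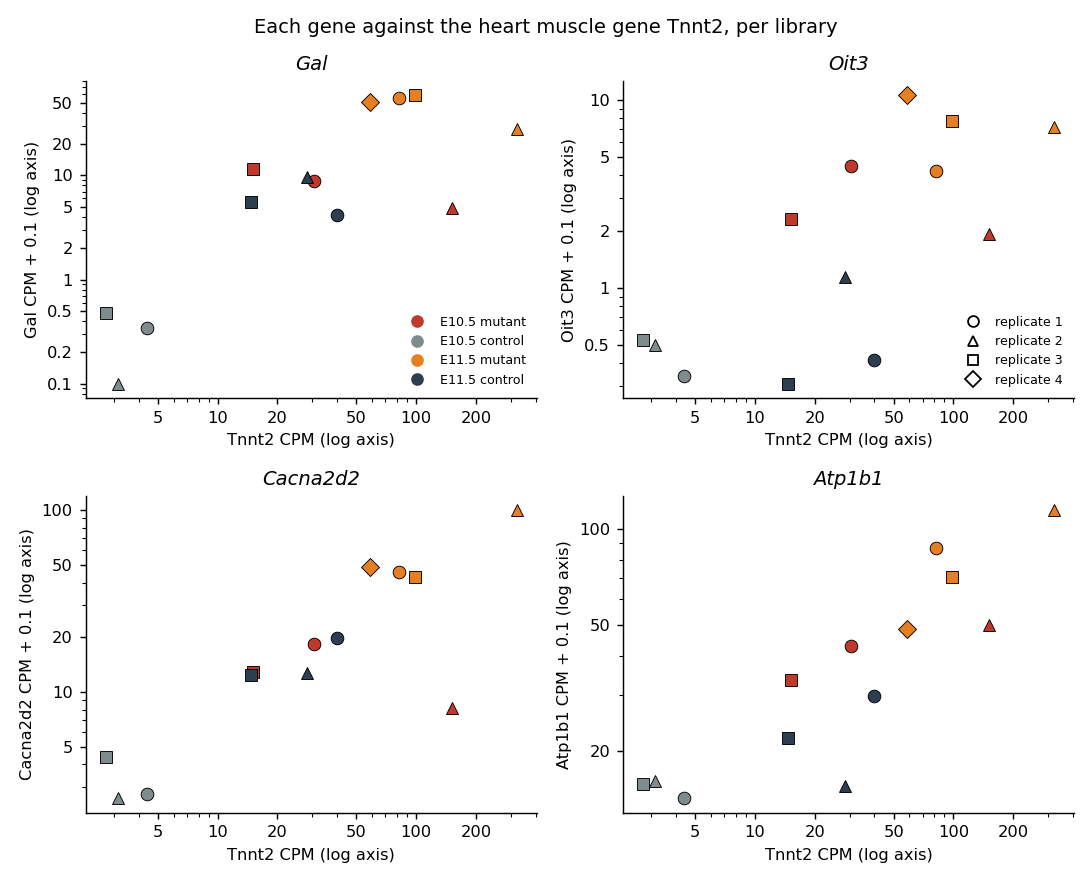
Each of the 4 genes (CPM + 0.1) against *Tnnt2* (CPM) in the 13 libraries, both on log axes, with colour for the group and symbol shape for the replicate number. Mutant replicate 2 of each stage (triangles at 321 and 151 CPM of *Tnnt2*) is the lowest mutant for *Gal* and the highest mutant for *Atp1b1*.

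Library by library, the 4 genes did not order the mutants alike. In foreguts *Gal* ran opposite to *Tnnt2* (replicates 3, 1 and 2 from high to low for *Gal*, and 2, 1 and 3 for *Tnnt2*), and *Atp1b1* ran in the order of *Tnnt2*. *Oit3* and *Cacna2d2* were both highest in replicate 1 and lowest in replicate 2. In tracheas the library with the most *Tnnt2*, replicate 2, had the lowest *Gal*, the highest *Cacna2d2* and *Atp1b1*, and the third highest *Oit3*.

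Leaving out mutant replicate 2 of a stage left the ratio of mean CPM (mutant over control) of *Gal* at 48.7 in place of 40.3 at E10.5 and at 8.64 in place of 7.58 at E11.5. For *Oit3* the ratios were 9.23 in place of 7.88 and 14.2 in place of 14.04. For *Cacna2d2* they were 4.92 in place of 4.14 and 3.06 in place of 3.97, and for *Atp1b1* 2.49 in place of 2.75 and 3.06 in place of 3.57. The same step took *Tnnt2* to 6.68 in place of 19.2 at E10.5 and to 2.88 in place of 5.06 at E11.5. The ratios of the 4 genes moved by less than 1.5 times, up for *Gal* and down for *Atp1b1* at both stages, while *Oit3* at E11.5 moved the other way in TPM (13.05 in place of 13.19). The ratio of *Tnnt2* had to fall, since the library was left out for its heart muscle RNA, and the part of heart muscle RNA in the values of the 4 genes was not tested. In bulk tissue, more cells of a type and more RNA per cell cannot be told apart.

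Other cell types were checked by lists of markers. Neuronal genes, relevant because galanin is a neuropeptide, summed to 42.4, 61.0 and 619.9 TPM in mutant foreguts and to 60.7 to 78.9 TPM in control foreguts. Mutant replicate 3, with *Tubb3* at 253 TPM, also had the highest *Gal* of the mutant foreguts (11.4 CPM), and replicate 1, with the least neuronal RNA of all foreguts, had 8.65 CPM. Without replicate 3 the log2 fold change of *Gal* was 4.97, and the part of neuronal RNA in the *Gal* values was not tested. In tracheas the neuronal sum was 34.97 to 55.9 TPM in mutants and 35.8 to 71.1 TPM in controls. None of 8 neuronal genes was called at either stage by edgeR, and 1 at E10.5 and none at E11.5 had an unadjusted p under 0.05 (none by DESeq2 or limma-voom).

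For *Oit3*, liver and endothelium were the lists of interest. The liver sum was 15.0 to 24.8 TPM in mutant foreguts and 6.89 to 21.4 TPM in control foreguts, and 10.3 to 18.4 TPM in mutant tracheas and 13.7 to 16.0 TPM in control tracheas. Its most abundant gene was *Serpina1a*, and albumin (*Alb*) did not exceed 0.910 TPM in any library. Endothelial genes summed to 157.8 to 205.7 TPM in mutant foreguts and 123.5 to 164.5 TPM in control foreguts, and to 174.2 to 229.3 TPM in mutant tracheas and 138 to 173.1 TPM in control tracheas. The endothelial sums of mutants and controls overlapped in foreguts and narrowly did not in tracheas. Of 10 endothelial genes, edgeR called only *Tek* at E10.5 and *Kdr* at E11.5, both receptors of endothelial growth factors and both higher in mutants (log2 fold changes 0.94, adjusted p = 0.0485, and 0.89, adjusted p = 0.0171), where 0.314% of all genes at E10.5 and 1.81% at E11.5 were called higher. DESeq2 called 2 of the 10 at E10.5 and 3 at E11.5, and limma-voom called none and 1. All 10 had a log2 fold change above 0 at both stages. Their medians were 0.40 and 0.38, against 0.03 and -0.01 over all genes tested. The largest at both stages was that of *Lyve1* (1.45, adjusted p = 0.130, and 1.70, adjusted p = 0.103, edgeR), a gene with a mean of 1.14 TPM. Its groups did not overlap at either stage, as for 2.6% of all genes in CPM. Leaving out any foregut except mutant replicate 3 ended the call of *Tek* (log2 fold changes of 0.82 to 1.09), and leaving out control trachea replicate 2 or 3 that of *Kdr* (0.72 to 1.02 over the 7 fits). The part of endothelial RNA in the *Oit3* values was not tested.

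For *Atp1b1*, which many epithelia express, the epithelial list is the one to read beside it. It summed to 245.9 to 425.9 TPM in mutant tracheas and 164.8 to 210.5 TPM in control tracheas, without overlap, and edgeR called 5 of its 8 genes higher at E11.5 (*Epcam*, *Krt8*, *Krt18*, *Cldn6* and *Foxa2*, with log2 fold changes of 0.64 to 1.04), against 1.81% of all genes tested. The call of *Epcam* held when any 1 trachea was left out, and each of the other 4 was lost without at least control replicate 3 (log2 fold changes of 0.57 to 1.22 over their fits). Of the mutant tracheas, replicate 2 had the highest and replicate 4 the lowest epithelial sum, as for *Atp1b1* and also for *Tnnt2*. Of the mutant foreguts, replicate 2 had the lowest epithelial sum (361.6 TPM) but the highest *Atp1b1* (49.8 CPM). In foreguts the epithelial sum was 361.6 to 475.4 TPM in mutants and 310.4 to 391.5 TPM in controls, the groups overlapped and none of the 8 was called by edgeR (3 at an unadjusted p under 0.05, 1 by DESeq2 and none by limma-voom). The part of epithelial RNA in the *Atp1b1* values was not tested. Among markers of the dissected mesenchyme, *Foxf1* was lower in mutants at both stages (log2 fold changes -1.51, adjusted p = 0.0186, and -0.94, adjusted p = 0.00875, edgeR) and *Sox9* at E11.5 (-1.29, adjusted p = 0.00168, edgeR), where 0.405% of all genes at E10.5 and 0.689% at E11.5 were called lower. The call of *Foxf1* at E10.5 was lost without control replicate 1, control replicate 3 or mutant replicate 1 (-1.67 to -1.41 over the 6 fits). In the remaining lists, 4 of 8 sinus node and venous pole genes had a log2 fold change above 0 in tracheas. Only *Isl1* was called, lower in mutants (-1.78, adjusted p = 0.00906, edgeR). Of 5 tested mesothelial and epicardial genes, 3 were above 0 in tracheas. Only *Krt19* was called there, higher in mutants (1.99, adjusted p = 0.0328, edgeR), and it was called in 2 of the 7 fits that left out 1 trachea.

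**Figure D3:**
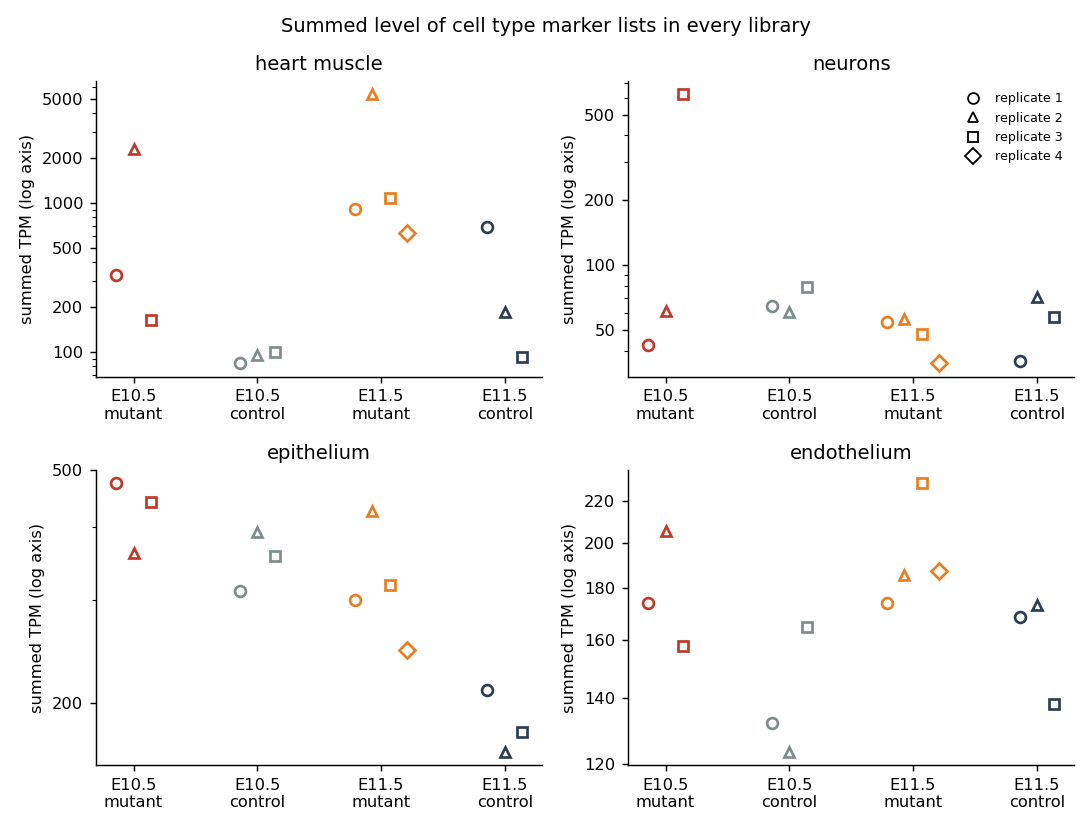
Summed TPM (log axis) of the heart muscle, neuronal, epithelial and endothelial marker lists in each library, 1 symbol per library, with the shape giving the replicate number. Mutant replicate 2 of both stages stands apart for heart muscle (2296 TPM at E10.5 and 5324 TPM at E11.5) and E10.5 mutant replicate 3 for neurons (619.9 TPM).

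Genes that act with the 4 genes or belong to their families were taken from fixed lists. Galanin's receptors were at or near 0. *Galr1*, *Galr2*, *Galr3*, the galanin-like peptide *Galp* and spexin (*Spx*), a further ligand of galanin receptors, did not pass the filter on low counts at either stage. *Galr2* was at most 0.700 TPM in mutant tracheas and 0.120 TPM in control tracheas, and *Galr1* was listed at 0 in all 7 tracheas. The *Gal* transcript was thus measured in tissue whose receptor transcripts were hardly detected at this depth.

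The beta subunits of the sodium pump other than *Atp1b1* were read beside it. *Atp1b3*, the other abundant beta subunit, had 56.8 to 66.0 TPM in mutant tracheas and 60.2 to 64.0 TPM in control tracheas, and its groups overlapped. *Atp1b2* had 8.94 to 11.8 TPM in mutant and 5.91 to 7.36 TPM in control tracheas. These groups did not overlap, as for 9.17% of all genes in CPM, and it was not called (log2 fold change 0.64, adjusted p = 0.0669, edgeR). In foreguts its groups overlapped (0.68, adjusted p = 0.426, edgeR). None of 5 FXYD genes, small regulators of the pump, was called by edgeR, DESeq2 or limma-voom, with 3 at E10.5 and 1 at E11.5 at an unadjusted p under 0.05.

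*Cacna2d2* was one of 4 alpha2delta subunits, all of them tested. *Cacna2d1*, its counterpart in heart and skeletal muscle, had 4.67 to 7.29 TPM in mutant tracheas and 2.68 to 5.03 TPM in control tracheas. In foreguts it had 3.34 to 6.39 TPM in mutants and 1.92 to 3.05 TPM in controls. These foregut groups did not overlap, as for 11.7% of all genes in CPM. Its log2 fold changes were 0.98 at E10.5 (adjusted p = 0.111, edgeR) and 0.77 at E11.5 (adjusted p = 0.145, edgeR). *Cacna2d4* had 3.72 to 7.41 TPM in mutant and 5.83 to 8.92 TPM in control tracheas (log2 fold change -0.38), and *Cacna2d3* had -0.56 in foreguts. None of these was called by edgeR at either stage. *Cacna2d1* had an unadjusted p under 0.05 at both stages, and 1 gene was called by DESeq2 at E10.5.

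Of the pore-forming alpha1 subunits, edgeR called 1 of 7 tested genes higher at E10.5 and 3 of 6 at E11.5, against 0.314% and 1.81% of all genes, and none lower. *Cacna1d*, an L-type channel of pacemaker and endocrine cells, had 2.12 to 2.82 TPM in mutant foreguts and 0.720 to 1.25 TPM in control foreguts (log2 fold change 1.32, standard error 0.209, adjusted p = 0.0455, edgeR). In tracheas it had 3.45 to 6.23 TPM in mutants and 1.84 to 2.61 TPM in controls (0.91, standard error 0.183, adjusted p = 0.0316, edgeR). *Cacna1c*, the main L-type channel of heart and smooth muscle (0.58, adjusted p = 0.0469, edgeR), and *Cacna1g*, a T-type channel (0.61, adjusted p = 0.0268, edgeR), were called in tracheas. None of 4 beta subunits and of 2 gamma subunits was called by any of the 3 tools, and 1 gamma subunit at E11.5 had an unadjusted p under 0.05.

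These calls of relatives rested on few libraries. At E10.5 the call of *Cacna1d* held only without mutant replicate 3, and leaving out any other foregut ended it (log2 fold changes of 1.15 to 1.41 over the 6 fits, adjusted p up to 0.211). At E11.5 leaving out control replicate 2 or 3 ended the calls of *Cacna1c*, *Cacna1d* and *Cacna1g*. Leaving out mutant replicate 1, 2 or 4 ended all 3 of them as well, and replicate 3 that of *Cacna1c*. Their log2 fold changes over these fits were 0.50 to 0.72 for *Cacna1c*, 0.77 to 1.003 for *Cacna1d* and 0.53 to 0.67 for *Cacna1g*, and the direction was kept.

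Beside *Oit3*, 3 of 10 other zona pellucida domain genes were expressed enough to be tested. *Tgfbr3*, the transforming growth factor beta co-receptor betaglycan, had 7.12 to 11.7 TPM in mutant tracheas and 4.34 to 5 TPM in control tracheas (log2 fold change 0.91, standard error 0.172, adjusted p = 0.0251, edgeR). It was not called without control replicate 2, control replicate 3 or mutant replicate 4 (log2 fold changes of 0.75 to 0.98 over the 7 fits). The endothelial co-receptor *Eng* had 12.1 to 18.3 TPM in mutant and 11.2 to 17.5 TPM in control tracheas and was not called.

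**Figure D4:**
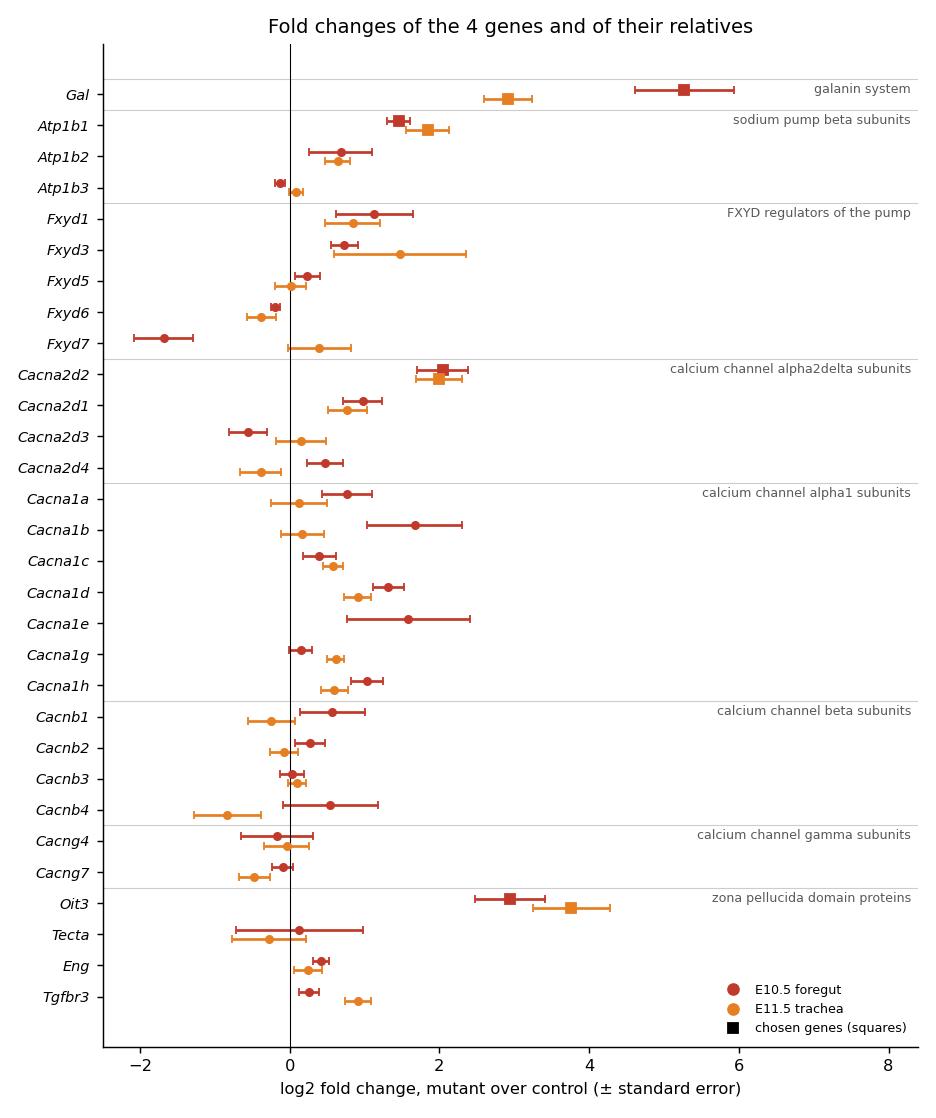
Log2 fold change of mutant over control with its standard error at E10.5 and E11.5 for the 4 chosen genes (squares) and tested relatives (circles), by gene family. The squares lie at 1.46 to 5.27, and the called relatives *Cacna1d*, *Cacna1c*, *Cacna1g* and *Tgfbr3* at 0.58 to 1.32.

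Genes with the most similar pattern were found by the root mean square distance between log2 CPM profiles over the 13 libraries, each centred on its own mean. The points share libraries, stage and genotype, so the distances are a description. For *Gal* the nearest were *Lrrc4c* (distance 1.08), *Prss35* (1.25) and *Cntn4* (1.34), with a median of 2.75 over all genes. *Tnnt2* was at 1.55, the 9th nearest of all genes to *Gal*, although *Gal* was lowest where *Tnnt2* was highest among mutants of a stage. *Myh6* was at 2.39.

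For *Oit3* the nearest were *Alx4* (0.769), *Rxfp2* (0.793) and C130021I20Rik (0.833), with a median of 1.78 over all genes. *Cacna2d2* was nearest to *Kcnh7* (0.517), *Mlip* (0.524) and *Gabra5* (0.569), with a median of 1.61, and *Atp1b1* to *Slc7a8* (0.370), *Fbxo32* (0.412) and *Tmcc3* (0.450), with a median of 1.04. *Tnnt2* was at 1.43 from *Oit3*, 1.10 from *Cacna2d2* and 1.27 from *Atp1b1*, the last of these above the median of all genes. *Myh6* was farther, at 2.01 from *Oit3*, 2.10 from *Cacna2d2* and 2.29 from *Atp1b1*, each above the median of all genes. Among themselves the 4 genes were closest for *Cacna2d2* and *Atp1b1* (0.870) and farthest apart for *Gal* and *Atp1b1* (2.03).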

How the data were processed

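Embryonic RNA was amplified by the Ovation v2 kit, and Nextera XT libraries were sequenced as single reads of 75 nt. Per the methods, the authors used BBDuk for trimming, Bowtie2 for alignment to mm10 and RSEM (1.3.0 in the submitters' notes) for counting, all within CSBB v3.0. The sources used here do not name the annotation. The estimated counts that the authors deposited are RSEM values per gene symbol without normalization, and they were rounded to whole numbers before use. TPM, also deposited by the authors, were scaled by RSEM for transcript length and depth. Replicates were not pooled. The methods state 3 replicates, whereas 4 mutant tracheas were deposited, and all 4 were used.

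Genes were tested in edgeR 4.0.16 (R 4.3.3) with filterByExpr, TMM factors, the quasi-likelihood test and Benjamini-Hochberg adjustment over all genes tested. Mutants were compared with controls in a fit for each stage, and stages in 1 fit of 13 libraries. A gene was called at an adjusted p under 0.05. CPM come from the stage fit unless the fit of 13 libraries is named. A standard error is the log2 fold change divided by the square root of F. Log2 CPM profiles used a prior count of 2. DESeq2 1.42.0, limma-voom, limma 3.58.1 on log2 TPM, other scalings and filters, the replicate block and leaving out each library were alternatives. Those for called genes of the lists were added after seeing the data. The fit was tested on simulated data.

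The 4 genes, the gene lists and the tests were chosen with earlier results of these data known. Genes named are the 4, *Gli3*, called members of the lists or otherwise the most abundant ones, the 3 nearest in pattern to each of the 4, and those at the edge of the choice. *Nme7* was added after its position had been seen, and *Lyve1* after its values had been seen. Some genes are not reported here. P-values measure the spread between embryos.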

Additional observations from a re-analysis of the deposited data

Results flagged for a closer look

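In mutant tracheas, 1 library lay apart from the other 3 for 3 of the 6 genes examined in this way (the 4 genes, *Tnnt2* and *Myh6*), and it was replicate 2 each time. For *Cacna2d2* it had 99.9 CPM against 42.7 to 48.8 CPM in the other mutants, a gap of 0.893 of the whole range of the group. For *Tnnt2* it had 321 CPM against 58.5 to 98.4 CPM (0.848 of the range), and for *Myh6* 634 CPM against 75.7 to 141.6 CPM (0.882 of the range). Chance alone would mark about 1 in 20 groups of this size by this measure if CPM were normally distributed, which was not checked. The 3 marks share a library, and *Tnnt2* and *Myh6* are both heart muscle genes, so they are not independent and are not set against that rate. The groups of 3 libraries were not examined. *Gal*, *Oit3* and *Atp1b1* were not set apart in the same library.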

How the results depend on the processing

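The log2 fold changes of *Gal*, *Oit3*, *Cacna2d2* and *Atp1b1* between genotypes stayed positive under every alternative run. The genes were chosen for high values of this contrast in the same libraries, so the kept sign is no test of them. With TPM on a log2 scale and a pseudocount of 1, which understates low genes, the E10.5 values were 3.77 for *Gal*, 1.07 for *Oit3* and 1.25 for *Cacna2d2*, and the E11.5 value of *Oit3* was 1.98. With a pseudocount of 0.1 the E10.5 value of *Oit3* was 2.40. Leaving out 1 library at a time gave 3.38 to 4.76 for *Oit3* at E11.5. Requiring at least 10 counts in every library removed *Gal* at E10.5 and *Oit3* at both stages, so no value exists there.

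Between stages in mutants, *Atp1b1* was 0.90 (adjusted p = 0.0541, limma on TPM, pseudocount of 1) and 0.92 (0.0570, pseudocount of 0.1), and 0.77 to 1.15 with 1 library left out. *Oit3* was 1.39 (adjusted p = 0.0559, limma on TPM, pseudocount of 0.1) and 1.20 to 1.88 with 1 library left out. Between stages in controls *Oit3* ranged from -0.42 to 0.96, reversed without E11.5 control replicate 2.

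With the replicate number as a block, *Oit3* between stages in mutants was 1.18 (adjusted p = 0.148, edgeR), and no other call of the 4 genes between stages changed. Deviations of same-numbered libraries correlated at -0.17 to 0.17. Libraries of different numbers were not compared in this way, so whether the numbers pair the embryos is not settled by these values.

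The number of genes called moved widely. At E10.5, 48 genes were called higher (0 to 128 with 1 library left out, 11 to 362 otherwise) and 62 lower (0 to 98, and 17 to 434). At E11.5, 279 were called higher (44 to 947, and 63 to 617) and 106 lower (16 to 416, and 45 to 304). Depth limits *Gal* and *Oit3* at E10.5, where all controls together hold 11 and 19 counts.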
